A study of Mus musculus with 28 samples.

Results

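The genes described here are the long intergenic noncoding RNAs (lincRNAs) that developing mouse rod photoreceptors hold at a measurable level. They are the genes annotated as lincRNA on chromosomes 1 to 19 whose deposited CPM (read counts scaled to a common library total) averaged 5 or more over the 15 wild-type libraries. The rule took 203 of 3062 lincRNA genes on those chromosomes, from a table of 45594 genes with 3729 lincRNA genes in all. The members were selected on their wild-type level, which is therefore given as a description with no test. The lowest members were Gm7538 at a WT mean of 5.07 CPM, 1500026H17Rik at 5.04 CPM and Gm26518 at 5.01 CPM, and the highest lincRNAs left out were Gm9530 at 4.94 CPM, Gm42851 at 4.94 CPM and Gm26659 at 4.90 CPM.

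The study followed rods from the first postnatal days into the days when rods of the rd1 mouse begin to die. Retinas of TgNrlp-GFP mice (WT) and of Pde6brd1/rd1; TgNrlp-GFP mice (rd1) were dissociated with papain, and GFP-positive cells were sorted at P2, P4, P6, P8 and P10 (postnatal days). Both genotypes carry the transgene, in which the promoter of Nrl, the rod-determining transcription factor, drives GFP, and rd1 mice in addition lack functional rod phosphodiesterase (Pde6b). WT had 2, 3, 4, 2 and 4 libraries at the 5 ages and rd1 had 2, 2, 3, 4 and 2, which makes 28 libraries. P6 rd1 replicates 1 and 3 were nearly identical and counted as 1 sample, so 27 samples entered the tests. The labels do not say whether replicates came from separate litters, so the p-values measure the spread between these samples.

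A lincRNA is transcribed, spliced and usually polyadenylated like an mRNA but codes for no known protein. Some lincRNAs act in the nucleus, some are the precursors of microRNAs (miRNAs) or of small nucleolar RNAs, and others are best known by the act of their transcription beside a coding gene. In the retina, miR-9 is a miRNA of progenitors and of neurogenesis, miR-124 is the abundant neuronal miRNA, and Miat (also called Gomafu or RNCR2) is a nuclear lincRNA described in retinal development. The libraries were made with a kit for polyadenylated RNA, so transcripts without a poly(A) tail are measured only in part, and a host transcript's level is not the level of its miRNA.

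By coordinates, 15 of the 203 members hold at least 1 mature miRNA of the RefSeq table inside their span and on their strand. The sequences below are from RefSeq on GRCm38.p6, written 5′ to 3′, with the seed (bases 2 to 8) in capitals. They are shown because the host transcripts moved in opposite directions over the course, and because the same mature miR-9 lies in 3 separate members. C130071C03Rik holds it at chr13:83738821-83738843, AI854517 at chr7:79505279-79505301 and Gm3764 at chr3:88215613-88215635, all on the plus strand.
miR-9-5p in C130071C03Rik, AI854517 and Gm3764: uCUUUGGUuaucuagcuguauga
miR-9-3p in the same 3 members: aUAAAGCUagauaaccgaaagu
miR-17-5p in Mir17hg: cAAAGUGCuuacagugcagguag
miR-20a-5p in Mir17hg: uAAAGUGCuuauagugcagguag
miR-18a-5p in Mir17hg: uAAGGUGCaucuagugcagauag
miR-19a-3p in Mir17hg: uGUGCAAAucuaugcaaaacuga
miR-19b-3p in Mir17hg: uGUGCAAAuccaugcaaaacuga
miR-92a-3p in Mir17hg: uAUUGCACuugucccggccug
miR-675-3p in H19: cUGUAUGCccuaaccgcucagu
miR-135a-5p in Rmst: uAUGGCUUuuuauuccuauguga
miR-191-5p in 4833445I07Rik: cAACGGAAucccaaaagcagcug
miR-425-5p in 4833445I07Rik: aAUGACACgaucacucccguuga
miR-181b-5p in A430106G13Rik: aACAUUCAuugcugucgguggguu
let-7d-5p in 6720427I07Rik: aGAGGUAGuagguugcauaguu
Within Mir17hg, the host of the oncogenic miR-17-92 cluster, miR-17-5p and miR-20a-5p share the seed AAAGUGC, and miR-19a-3p and miR-19b-3p share GUGCAAA. Mir124a-1hg and Mir124-2hg are members too and are annotated as hosts of miR-124.

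Depth differed between libraries. The 9 rd1 libraries outside P8 were the deepest, at 15.98 to 21.36 M counts (M for mega), while the 4 rd1 libraries at P8 and the 15 WT libraries held 11.1 to 15 M counts. Except at P8, the age at which the genotypes were of like depth, depth and genotype cannot be told apart. P6 WT replicate 1 stood apart, with counts above 0 for 27793 genes against 22299 to 24862 in the other libraries. Rod markers were high throughout, with 8 genes summing to 6806 to 10840 CPM at P2 and P4 and to 25190 to 49780 CPM at P10. Markers of other cells were present as well. P10 WT replicate 5 had the lowest sums of the P10 WT libraries for progenitor genes (81.5 against 372.8 to 711.6 CPM) and for amacrine and horizontal cell genes (183.7 against 354.1 to 396.6 CPM). In the same sum for amacrine and horizontal cells, P6 WT replicate 3 stood highest at 974.9 CPM, against 392.1 to 611.2 CPM in the other P6 WT libraries. Immediate early and heat shock genes, which cell dissociation induces, summed to 1625 to 4459 CPM in the 9 deeper rd1 libraries and to 430.9 to 2084 CPM in the 19 others. Of these 12 genes, 11 were higher in rd1 over the 5 ages.

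The 203 lincRNAs took a small and very uneven share of the rod transcriptome. They made up 0.922% to 1.55% of each WT library and 0.805% to 1.26% of each rd1 library. The highest, Mir124a-1hg, averaged 3533 CPM and took 28.8% of the WT sum, and the 10 highest took 72.0%. After Mir124a-1hg came Malat1, the nuclear speckle lincRNA, at 1547 CPM, Miat at 744 CPM, Mir124-2hg at 653.3 CPM, AY036118 at 593.1 CPM, 1700020I14Rik at 559.6 CPM, the imprinted Meg3 at 481 CPM and Gm26905 at 359 CPM. AY036118 lies at a locus with ribosomal RNA sequence, described below. Summed with Gm42418, Gm26917 and Gm26870, it held 4171 CPM in P6 WT replicate 1 and 1875 CPM in P6 WT replicate 2. In the other WT libraries this sum was 135.9 to 685.5 CPM. In all, 11 members averaged above 100 CPM, 105 from 10 to 100 CPM and 87 from 5 to 10 CPM, with a median of 12.3 CPM. Deposited transcript counts, each divided by its own length and by the library total, gave another order. The gene counts are rescaled from the transcript counts: over the WT libraries a member's summed transcript counts were 0.488 to 1.44 times its gene count (median 0.988; Malat1 1.22). On this scale Mir124a-1hg stayed highest at a WT mean of 835.8 CPM per kb (308.3 to 1660 over the WT libraries). AY036118 followed at 605.7 CPM per kb (131.7 to 3269) and Malat1 at 276 CPM per kb. Miat was in the eighth place at 92.9 CPM per kb. The ranges over the WT libraries overlap between each of these lincRNAs and the next. These ranges span the 5 ages, and differences between neighbours in this order were not tested.

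**Figure D1:**
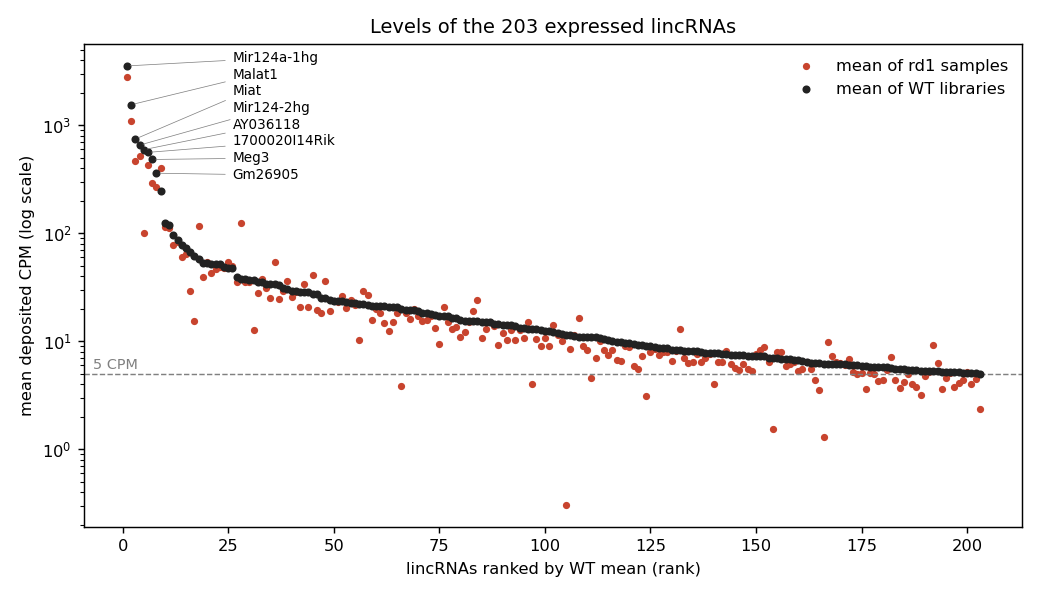
Mean deposited CPM (log axis) of each of the 203 lincRNAs, ranked by the WT mean; black points are the mean of 15 WT libraries, red points the mean of the rd1 samples, and the dashed line marks 5 CPM. The 8 named lincRNAs run from 359 to 3533 CPM in WT, and most of the others lie under 100 CPM.

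Between P2 and P10 many of these lincRNAs changed in WT rods, more of them upwards. edgeR's quasi-likelihood test with Benjamini-Hochberg adjustment over all 18608 tested genes called 77 of 203 members past an adjusted p of 0.05, 47 higher and 30 lower at P10. Over all tested genes the same test called 33.3%, 16.5% higher and 16.8% lower, so the share of members called, 37.9%, lay near that background. The median log2 fold change was 0.18 over the members and 0.02 over all genes. With 4 of the 15 WT libraries at P10 and 2 at P2, the membership rule itself leans towards lincRNAs that are high at P10, and nothing is read from the excess of higher calls. Of the 77, 54 changed more than 2-fold and 23 more than 4-fold (13 higher, 10 lower). In 75 of the 77 the P2 and P10 libraries did not overlap; that was so for 50.7% of all members and for 44.7% of all tested genes. A test over all 5 ages called 84 members (36.4% of all genes), of which 49 had their highest mean at P10 and 18 at P2, 11 at P4 and 3 each at P6 and P8. Among these, a highest mean at the first or last age was more common than one in between. The ages of the highest means were not counted over all tested genes, so this is not read as particular to the members.

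Among the lincRNAs that fell, Miat, C130071C03Rik and AI854517 followed nearly the same path. In P2 WT libraries Miat stood at 1591 and 1327 CPM, and in P10 WT libraries at 127.6, 81.0, 57.0 and 4.06 CPM. All 4 late libraries were thus far under both early ones, and the highest level of all was in a P4 library (2041 CPM). The log2 fold change of Miat was -4.37 ± 0.74 (SE, edgeR adjusted p = 8.41e-05). C130071C03Rik, which holds a copy of miR-9, went from 147.4 and 119.5 CPM at P2 to 62.4, 56.4, 43.5 and 29.6 CPM at P10, a log2 fold change of -1.38 ± 0.24 (adjusted p = 0.000144). Next to it, AI854517, another miR-9 host, went from 9.54 and 10.9 CPM to 1.58, 1.96, 0.992 and 0.115 CPM, a change of -3.06 ± 0.58 (adjusted p = 0.000316). In neither did the P2 and P10 libraries overlap. By correlation of log2 CPM over the 10 group means, these are the members most like Miat, C130071C03Rik at r = 0.99 and AI854517 at r = 0.98, with 4930578M01Rik at r = 0.96; the group means share their libraries and cell composition. Gm3764, the third miR-9 host, did not pass. Its P2 library at 4.93 CPM lay within the range of its P10 libraries (1.21 to 9.34 CPM), and that at 9.38 CPM just above it. The highest mean of Gm3764 was at P6 (11.9 ± 3.0 CPM, SD, n = 4).

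Markers of other cells moved over the same ages. Of 10 markers of progenitors and cycling cells, 9 fell in WT, with a median log2 fold change of -4.09, and their sum went from 1077 to 1692 CPM at P2 to 81.5 to 711.6 CPM at P10. Of 10 markers of amacrine and horizontal cells, 5 fell and 2 rose, and of 7 ganglion cell markers 1 fell. Of 8 cone markers, 5 rose and 1 fell, but their sum in WT was 810.4 to 1036 CPM at P2 and 263.2 to 614.5 CPM at P10. None of these markers was at 0 in every library. Within P10 WT, replicate 5, the library poorest in both marker lists, was also the lowest for Miat, C130071C03Rik, AI854517 and Gm3764, and within P6 WT, replicate 3, the library richest in amacrine and horizontal cell markers, was the highest for Miat at 1556 CPM against 501.5, 681.5 and 592 CPM. Without P10 WT replicate 5 the fall of Miat was -3.98 (adjusted p = 3.49e-05). What part the other cells have in the fall was not tested, and in bulk libraries fewer cells of a type and less RNA per cell cannot be told apart.

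Lockd, which lies 3579 bases from the cell cycle inhibitor gene Cdkn1b and on its strand, was at 50.9 and 31.7 CPM in P2 WT libraries and at 2.79, 3.08, 3.23 and 2.74 CPM in P10 WT libraries. Its level was still 40.6 to 73.3 CPM at P4 and 7.33 to 20.9 CPM at P6, and all P8 and P10 WT libraries lay between 2.42 and 3.62 CPM. The change was -3.68 ± 0.41 (adjusted p = 6.65e-07), against -1.01 for Cdkn1b (adjusted p = 5.66e-05). M5C1000I18Rik, which overlaps C2cd4b on the opposite strand, fell from 18.5 and 20.3 CPM to between 0.483 and 1.93 CPM, a change of -4.21 ± 0.42 (adjusted p = 1.60e-07), beside -5.82 for C2cd4b. Further members of the 10 largest falls without overlap were Gm26694 (-3.23), Gm42418 (-2.52), 4930578M01Rik (-2.50), Gpr137b-ps (-2.42) and Gm26561 (-2.11). H19, the imprinted host of miR-675, was also among them at -3.01 ± 0.74 (adjusted p = 0.0031). Its P2 libraries differed widely, at 86.9 and 18.6 CPM, against 0.736 to 10.3 CPM at P10. Without P2 WT replicate 1 the changes of H19, Gm26561 and Gpr137b-ps were -1.57, -1.01 and -1.38, with adjusted p = 0.213, 0.264 and 0.0506. The call of Gm42418 was lost without P2 WT replicate 2 (adjusted p = 0.458) and without each of P10 WT replicates 2, 3, 4 and 5 (adjusted p = 0.0616, 0.0724, 0.0519 and 0.0929).

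Of the 2 hosts of miR-124, Mir124-2hg rose, and its mean was higher at each age than at the one before. It was at 258.4 and 177.3 CPM in P2 WT libraries, had a mean of 445.2 ± 78.3 CPM (SD, n = 4) at P6, and reached 1005, 1390, 1243 and 1448 CPM at P10. Each P10 library was above every earlier one, and the log2 fold change was 2.68 ± 0.27 (adjusted p = 1.60e-07). Mir124a-1hg, the higher of the 2 per kb, stood at 3079 and 2817 CPM at P2 and at 3290, 4903, 5101 and 6893 CPM at P10. Although these did not overlap, the intermediate libraries spread from 1446 to 4675 CPM at P6 alone, and the change of 0.91 ± 0.38 did not pass (adjusted p = 0.0653). It passed with DESeq2 (adjusted p = 0.0315), with no filter on low counts (0.0199), and when P6 WT replicate 1, P6 WT replicate 2 or P10 WT replicate 2 was left out (0.0393, 0.0356 and 0.0282). 4833445I07Rik, the host of miR-191 and miR-425, rose from 6.54 and 5.39 CPM to 7.66, 10.5, 12.8 and 14.3 CPM, a change of 1.06 ± 0.29 (adjusted p = 0.00753; 0.0762 without P2 WT replicate 2). Over all tested genes 16.5% rose and 16.8% fell in WT. Of the 15 miRNA hosts found by coordinates, 1 rose, 5 fell and 9 did not pass in WT, with a median log2 fold change of -0.51. The other falls were those of H19, Gm37233 and Rmst. Rmst, a neurogenic lincRNA, changed by -1.60 ± 0.53 (adjusted p = 0.0223), a call lost without P2 WT replicate 1, P10 WT replicate 4 or P10 WT replicate 5 (adjusted p = 0.184, 0.0626 and 0.0501).

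The largest rise was that of Gm7546, an uncharacterised lincRNA at chr7:65579998-65635913. Its P2 WT libraries held 0.585 and 2.01 CPM, and its P10 WT libraries held 22.5, 22.1, 26.8 and 36.0 CPM. The increase was stepwise, with 4.33 to 8.18 CPM at P6 and 14.1 to 24.0 CPM at P8, and the log2 fold change was 4.47 ± 0.51 (adjusted p = 9.09e-07). The members most like it over the 10 group means were Gm44196 (r = 0.98), Platr17 (r = 0.98) and Gm11342 (r = 0.97). Platr17, which was already high at P2 (49.9 and 65.9 CPM), reached 159.8 to 216 CPM at P10, a change of 1.79 ± 0.28 (adjusted p = 3.85e-05). A830039N20Rik lies inside Kcnma1, the gene of the BK potassium channel, on the same strand. It went from 1.396 and 1.08 CPM to 32.0, 30.9, 25.3 and 7.24 CPM, the last in P10 WT replicate 5, and its change of 4.37 ± 0.55 stood beside 3.62 for Kcnma1. Counts of genes that overlap on the same strand are uncertain. The other large rises without overlap were A930006I01Rik (3.44), Gm11342 (3.43), Gm14268 (3.09), Gm42426 (2.75), Gm44196 (2.74), 4930570G19Rik (2.38) and Gm7538 (2.17). Bipolar cell markers also rose over these ages (7 of 8), as did markers of rods (5 of 8), cones (5 of 8), vessels (5 of 7) and pigment epithelium (3 of 5). These are counts of genes: the summed cone markers were lower at P10, as given above. The vessel sum in WT was 213.1 to 226.7 CPM at P2 and 49.4 to 425.8 CPM at P10. The bipolar sum was 326 CPM in P10 WT replicate 5 against 991.5 to 1375 CPM in the other P10 WT libraries, while Gm7546 was highest in that replicate.

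**Figure D2:**
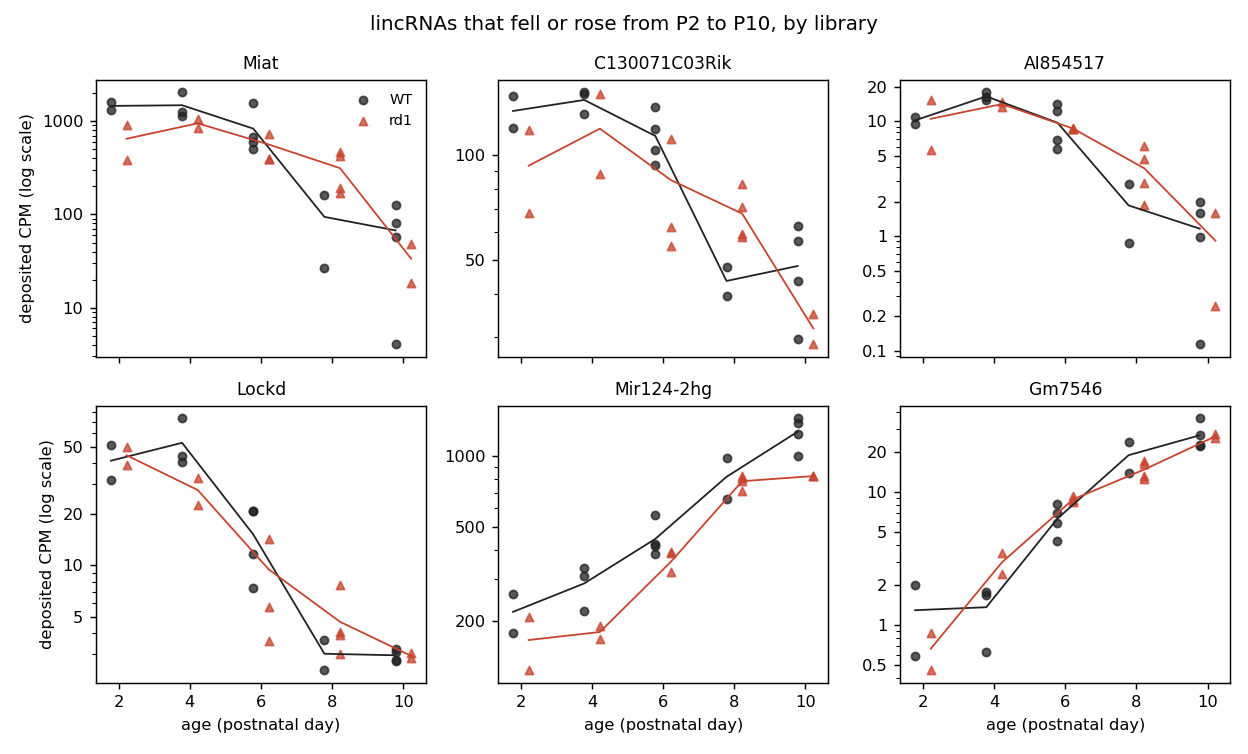
Deposited CPM (log axis) against age for 6 lincRNAs; circles are WT libraries, triangles rd1 libraries, and lines join the group means. Miat, C130071C03Rik, AI854517 and Lockd drop between P6 and P8 in WT, and Mir124-2hg and Gm7546 climb at each step from P4.

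Nuclear-retained and neural lincRNAs did not move as a group. Miat fell, Neat1, the scaffold of paraspeckles, was higher at P10, and Malat1 did not pass. Neat1 was at 13.3 and 13.9 CPM at P2 and at 25.1, 23.6, 33.6 and 37.4 CPM at P10, a change of 1.27 ± 0.37 (adjusted p = 0.0111); without P2 WT replicate 1 or 2 it did not pass (adjusted p = 0.0886 and 0.0598). Malat1 stayed between 1054 and 2404 CPM in all P2 and P10 WT libraries, with a change of -0.14 ± 0.25 (adjusted p = 0.705). Meg3, an imprinted lincRNA of neurons, had P2 libraries at 880.7 and 626.9 CPM and P10 libraries at 356.3, 535.6, 550.1 and 69.2 CPM, the last in P10 WT replicate 5. Its change of -0.91 ± 0.57 did not pass (adjusted p = 0.232). Otx2os1, which starts 1644 bases from Otx2 and runs the other way, rose from 4.77 and 5.98 CPM to between 16.9 and 25.7 CPM, a change of 2.01 ± 0.28 (adjusted p = 9.52e-06). Otx2, the photoreceptor and bipolar transcription factor, changed by -1.70 over the same ages (adjusted p = 1.97e-07). Snhg12, a host of small nucleolar RNAs, changed by 0.86 ± 0.25 (adjusted p = 0.0103; 0.0725 and 0.0642 without P2 WT replicate 1 or 2).

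Promoter windows are shown for a pair of lincRNAs that rose and a pair that fell. Each runs from 250 bases before to 50 bases after the start in RefSeq (GRCm38.p6), 5′ to 3′ on the strand of the gene. Capitals mark the letters CTAATC, the core that CRX and OTX2 bind, and TGCTGA, part of the element that NRL binds, each searched on both strands (their reverse complements are GATTAG and TCAGCA).
4930570G19Rik, rising, minus strand, chr3:156561697-156561996: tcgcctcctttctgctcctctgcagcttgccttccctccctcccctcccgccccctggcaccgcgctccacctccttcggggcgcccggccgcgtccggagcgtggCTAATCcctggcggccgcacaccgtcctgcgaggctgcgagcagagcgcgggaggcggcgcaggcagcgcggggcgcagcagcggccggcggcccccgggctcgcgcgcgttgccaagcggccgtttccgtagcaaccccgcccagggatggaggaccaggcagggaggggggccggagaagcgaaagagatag
Gm7538, rising, minus strand, chr5:119199969-119200268: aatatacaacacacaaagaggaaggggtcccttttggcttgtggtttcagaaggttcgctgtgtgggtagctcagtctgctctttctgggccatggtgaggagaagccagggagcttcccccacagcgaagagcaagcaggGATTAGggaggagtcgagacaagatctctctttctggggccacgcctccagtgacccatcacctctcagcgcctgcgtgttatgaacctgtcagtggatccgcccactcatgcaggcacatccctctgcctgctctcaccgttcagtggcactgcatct
Miat, falling, minus strand, chr5:112228899-112229198: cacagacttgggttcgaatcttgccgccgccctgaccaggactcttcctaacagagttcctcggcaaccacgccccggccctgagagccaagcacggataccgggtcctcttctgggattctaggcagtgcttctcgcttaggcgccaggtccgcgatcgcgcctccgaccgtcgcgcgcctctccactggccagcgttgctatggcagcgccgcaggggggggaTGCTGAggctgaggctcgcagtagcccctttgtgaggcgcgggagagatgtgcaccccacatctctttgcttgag
Lockd, falling, plus strand, chr6:134928842-134929141: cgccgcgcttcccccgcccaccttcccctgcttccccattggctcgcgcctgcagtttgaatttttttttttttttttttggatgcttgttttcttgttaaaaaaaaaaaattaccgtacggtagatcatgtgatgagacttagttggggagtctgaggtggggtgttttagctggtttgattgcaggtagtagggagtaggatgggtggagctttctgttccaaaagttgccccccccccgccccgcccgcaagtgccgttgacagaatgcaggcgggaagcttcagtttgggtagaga
The start of Miat in RefSeq lies 447 bases from the start in the counted annotation. Of the 203 members, 70 had a window whose start was within 500 bases of the counted start. CTAATC was in 8 of the 70 (11.4%) and in 6.46% of all 32851 windows of the table, and TGCTGA was in 12 of the 70 (17.1%) and in 19.5% of all windows. Of 20 members with a window that rose from P2 to P10, 4 held CTAATC, and of 11 that fell, 1 did. For TGCTGA the counts were 2 of 20 and 3 of 11. The GC box GGGCGG, bound by SP1, was in 40 of the 70 (57.1%) against 35.7% of all windows, and the windows of the members had a median GC content of 59.3% against 52.7%. These are matches of letters, given as a description.

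Many of these lincRNAs lie close to a coding gene. Of the 203, 122 lay within 5 kb of one, 56 overlapped one (48 on the opposite strand) and 40 started head to head with one within 5 kb. The same shares were not counted for other genes. 4930570G19Rik starts 48 bases from Negr1, the gene of a neural adhesion protein, and rose by 2.38 ± 0.31 beside 1.62 for Negr1 (adjusted p = 4.53e-06 and 1.68e-05). Among the 115 pairs within 5 kb in which both genes were tested, 44 members and 45 neighbours passed between P2 and P10 in WT. In 19 pairs both passed, 17 of them in the same direction; Otx2os1 with Otx2 was among the pairs that moved apart. For the genotype difference averaged over the ages, 39 members and 28 neighbours passed, and both passed in 11 pairs, 6 in the same direction. Over all tested genes 33.3% passed between P2 and P10 in WT and 23.5% on the genotype average. Joint calls were not counted for pairs that are not neighbours, so these counts are not read as a link.

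In rd1 rods the course was measured in libraries that the membership rule did not use, and it ran mostly the same way. Of 203 members, 44 were higher and 31 lower at P10 than at P2, against 14.5% and 15.5% of all tested genes (30% in all). Without P2 rd1 replicate 1 the total was 47 and without P10 rd1 replicate 2 it was 48. In both genotypes 54 members passed, 35 higher and 19 lower, with no member in opposite directions. They are 70.1% of the WT calls and 72.0% of the rd1 calls, and 76 of the 77 WT calls (98.7%) had the same sign in rd1. Over all tested genes the shares were 64.9% and 72.0%, with 96.4% of the WT calls of the same sign and 11 genes called in opposite directions. Over the 203 members the 2 log2 fold changes correlated with Pearson's r = 0.86 and Spearman's rho = 0.82, and over all tested genes with r = 0.75 and rho = 0.74, each a correlation across genes, which are not independent replicates. Miat went from 911.6 and 386.5 CPM to 48.7 and 18.2 CPM in rd1, a change of -4.13 ± 0.96 (adjusted p = 0.00233; 0.0529 without P10 rd1 replicate 2). C130071C03Rik changed by -1.399 ± 0.30 and AI854517 by -3.33 ± 0.73 (adjusted p = 0.00106 and 0.00147), while Gm3764 did not pass (0.85 ± 0.66, adjusted p = 0.362).

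Lockd in rd1 went from 49.9 and 39.0 CPM to 2.83 and 3.04 CPM, a change of -3.76 ± 0.53 (adjusted p = 1.47e-05). Mir124-2hg went from 207.6 and 123.1 CPM to 823.4 and 822.4 CPM, a change of 2.47 ± 0.28 (adjusted p = 1.51e-06). Gm7546 went from 0.460 and 0.875 CPM to 25.4 and 27.3 CPM, with a change of 5.44 ± 0.56 (adjusted p = 5.50e-07). In each of these the P2 and P10 rd1 libraries lay apart. The P10 rd1 libraries lay within the range of the P10 WT libraries for Lockd and Gm7546, and below it for Mir124-2hg. Some members passed in rd1 alone. Mir17hg, whose miRNAs are shown above, changed by -1.69 ± 0.36 in rd1 (adjusted p = 0.00106) and by -0.68 ± 0.30 in WT (adjusted p = 0.0836). Meg3 changed by -2.47 ± 0.72 in rd1 (adjusted p = 0.0116; 0.0517 without P2 rd1 replicate 1 and 0.146 without P10 rd1 replicate 2). The test of the difference between the courses, rd1 minus WT, passed for 2 members, both lower (0.167% of all genes in either direction, 0.0591% lower), Gm26880 and Gm42428, and for none of those named in this paragraph.

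**Figure D3:**
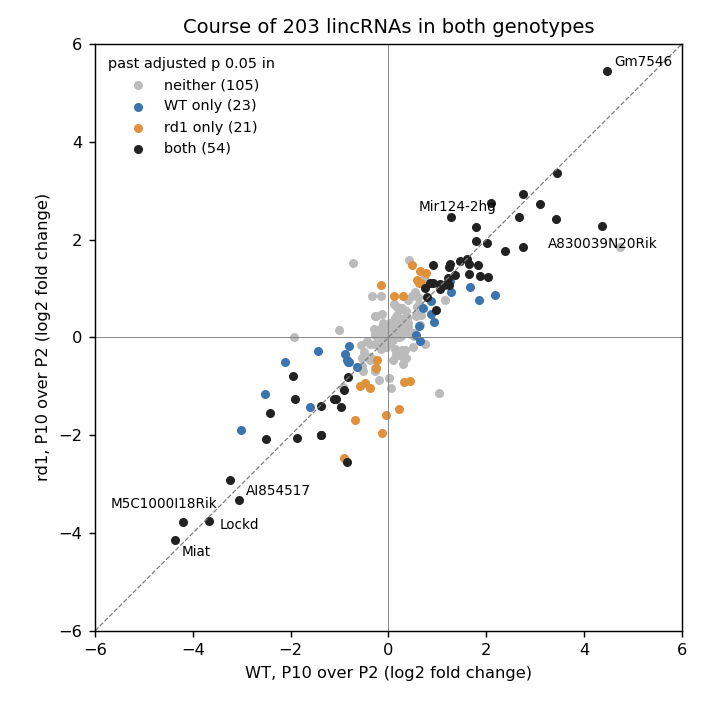
Log2 fold change from P2 to P10 in rd1 (vertical) against WT (horizontal) for the 203 lincRNAs; colours show in which genotype a lincRNA passed an adjusted p of 0.05, and the dashed line marks equal change. The 54 lincRNAs called in both lie below 0 on both axes or above 0 on both.

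Averaged over the 5 ages, 82 of 203 members differed between the genotypes, 17 higher and 65 lower in rd1, against 12.9% and 10.6% of all tested genes (23.5% in all). The median log2 difference was -0.23 over the members and -0.01 over all genes. A rule that selects on the WT level favours genes that are lower in rd1, so the split is not read as a result. When lincRNAs were chosen in the same way on the rd1 mean instead (180 genes, 172 of them members), 22 were higher and 48 lower. Markers of other cells differed too: progenitor markers were higher in rd1 (5 of 10), as were Muller glia markers (3 of 8), while markers of vessels (4 of 7, median -0.95), pigment epithelium (2 of 5) and amacrine and horizontal cells (2 of 10) were lower. Their part in the members' differences was not tested. The members' difference was not even over the ages. At P2, 19 members passed, 4 higher and 15 lower, against 1.42% and 1.38% of all tested genes (2.81% in all). P4 had 5 higher and 16 lower, 21 together, where 1.61% and 1.34% of all genes passed (2.95%). For P6 the calls were 4 and 14, a total of 18, with 1.46% and 1.17% over all genes (2.63%). P8 gave 3 higher and 16 lower, or 19, beside 1.18% and 2.52% (3.7%). The largest number was at P10, 8 higher and 32 lower, or 40, with 7.81% and 4.83% of all genes (12.6%). The median log2 difference of the members was 0.02 at P8, the age of like depth, and -0.45 at P10, -0.11 at P6, -0.23 at P4 and -0.39 at P2.

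The counts by age rest on few libraries. At P2 the count was 7, 10 and 9 without rd1 replicate 1, rd1 replicate 2 and WT replicate 1, and 29 without P6 WT replicate 1. At P4 it was 11 and 7 without rd1 replicate 1 or 2, and at P6 it was 6 without either rd1 sample. At P8 it was 9, 11 and 4 without rd1 replicate 2, rd1 replicate 4 and WT replicate 1, and at P10 it was 20, 12 and 24 without rd1 replicate 1, rd1 replicate 2 and WT replicate 3. Without P6 WT replicate 1 the count was 31 at P4, 27 at P6 and 51 at P10.

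Of the 65 lower calls, 30 were lower at all 5 ages and another 30 had a log2 difference above 0 at P8. Their median was -0.06 at P8 and -0.84 over the other ages. For the 17 higher calls, 13 of them of 1 sign at all ages, the median was 0.30 at P8 and 0.62 over the other ages. Both sets were selected on the average over the 5 ages, in which P8 weighs less than the others together. A smaller median at P8 is therefore in part built in. A test of the P8 difference against the mean of the other ages, added after these levels were seen, passed for 37 members (28 above and 9 below), against 3.05% and 6.56% of all genes (9.61% in all). It passed for 0 members without P8 WT replicate 1, 16 without P8 WT replicate 2 and 22 without P8 rd1 replicate 4. Malat1 shows the pattern. Its rd1 libraries held 1018 and 865.5 CPM at P2, 830.1 and 588.7 at P4, 1077 and 902.2 at P10 and 913.8, 967.2 and 942.7 at P6, but 1181, 1301, 1868 and 1477 at P8. In WT it was at or above 1054 CPM in every library. The log2 difference was -1.105 ± 0.27 at P4 (adjusted p = 0.0258) and 0.27 ± 0.25 at P8 (adjusted p = 0.611), and -0.62 ± 0.12 on average (adjusted p = 0.000463). The part of depth and of the dissociation genes in such differences was not tested.

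**Figure D4:**
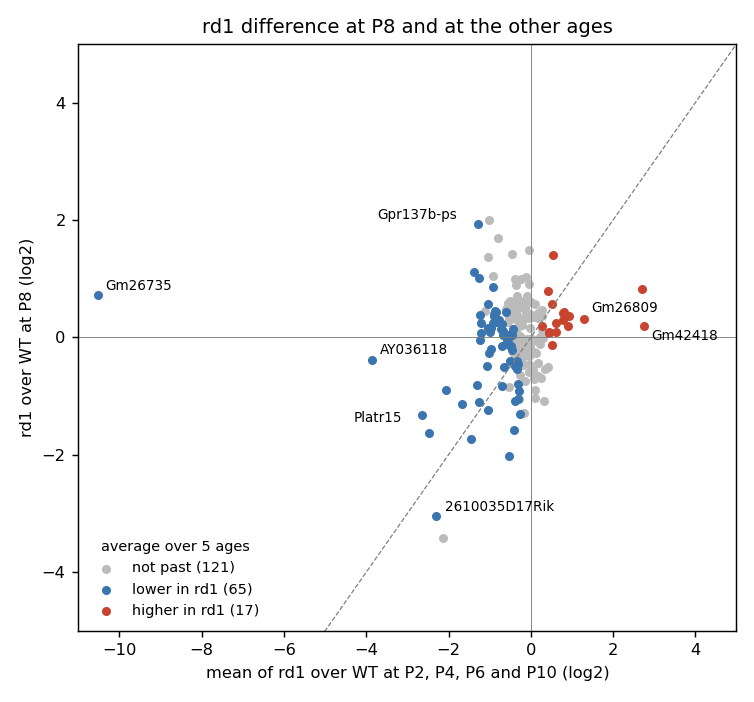
Log2 difference of rd1 over WT at P8 (vertical) against its mean at P2, P4, P6 and P10 (horizontal) for the 203 lincRNAs; blue and red mark members lower and higher in rd1 on average, and the dashed line marks equal difference. The blue points centre on -0.84 horizontally and -0.06 vertically, while 2610035D17Rik and Platr15 are low on both axes. Blue and red points were selected on the average over the 5 ages, to which the ages of the horizontal axis contribute most.

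A small set was lower in rd1 at every age, P8 included. The 6 members that passed at each of the 5 ages were 2610035D17Rik, Platr15, RP24-549B12.4, D130017N08Rik, Gm26869 and Gm37724, all lower in rd1. Over all tested genes 0.768% passed at each age, 0.408% lower at each and 0.36% higher at each. Selection on the WT level favours the lower direction here too. 2610035D17Rik, a lincRNA of chromosome 11 more than 40 kb from the nearest coding gene, was flat in WT, from 14.6 to 29.7 CPM over the 15 libraries (P10 libraries 16.9 to 21.4 CPM). In rd1 it was at 6.61 and 5.21 CPM at P2, 3.09, 3.55 and 3.78 CPM at P6, 1.52, 3.12, 2.54 and 2.80 CPM at P8 and 1.70 and 1.85 CPM at P10. No rd1 library reached the lowest WT library. The log2 difference was -1.82 ± 0.31 at P2, -3.05 ± 0.26 at P8 and -3.34 ± 0.32 at P10 (adjusted p = 0.00105, 7.96e-08 and 2.63e-07). Its course in rd1 was a fall of -1.58 ± 0.33 (adjusted p = 0.000931), against -0.06 ± 0.26 in WT. The difference between these courses, -1.52 ± 0.42, did not pass (adjusted p = 0.212). The annotated transcripts of 2610035D17Rik did not share the genotype difference evenly. Transcript 2610035D17Rik-002 took a mean of 87.1% of the gene's transcript counts in WT and 23.5% in rd1. For 2610035D17Rik-003 the means were 8.55% and 61.5%. At P8, the age of like depth, 2610035D17Rik-002 took 91.9% in WT and 38.1% in rd1. For 2610035D17Rik-003 the P8 shares were 2.0% and 39.7%. At the low gene level of rd1 such shares are imprecise, and their difference was not tested.

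Platr15, named as a pluripotency associated transcript, was at 11.7 and 9.97 CPM in P2 WT libraries and 4.70 to 5.55 CPM in P10 WT libraries. In rd1 it was at 1.75 and 1.424 CPM at P2, 1.91, 1.14, 3.22 and 1.75 CPM at P8 and 0.439 and 0.661 CPM at P10. All rd1 libraries lay under all WT libraries, and the average log2 difference was -2.38 ± 0.15 (adjusted p = 5.78e-11), with -1.32 ± 0.30 at P8 (adjusted p = 0.012). The others of the 6 had average differences of -2.31 (RP24-549B12.4), -1.56 (D130017N08Rik), -1.51 (Gm26869) and -1.23 (Gm37724), and at P8 -1.63, -1.14, -1.73 and -1.098. Further lower members of 1 sign at all ages were AY036118 (-3.16), Gm37381 (-1.82), Gm26518 (-1.21) and Gm26782 (-1.08). These genes lie on chromosomes 1, 2, 5, 7, 11, 14, 15 and 17. Of 7 members within 10 Mb of Pde6b on chromosome 5, 2 were higher (Gm15728 and 5430416N02Rik) and 0 lower.

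Among the members higher in rd1, Gm26809, 1219 bases from Lsm8, had the smallest adjusted p. In WT it stayed between 47.9 and 74.3 CPM in all 15 libraries. In rd1 it was at 128.6 and 148.1 CPM at P2, P4 libraries held 138.4 and 176.3 CPM, and P6 libraries 159.4, 153 and 156.9 CPM. It was lower in P8 libraries (76.4, 61.9, 81.5 and 67.4 CPM) than in P10 libraries (121.1 and 89.9 CPM). The log2 difference was 1.105 ± 0.07 on average (adjusted p = 1.29e-10), 1.64 ± 0.16 at P4 (adjusted p = 7.32e-07) and 0.31 ± 0.16 at P8 (adjusted p = 0.314). Over all tested genes 12.9% were higher and 10.6% lower in rd1 on average. Of the 7 members listed as hosts of small nucleolar RNAs or miRNAs, 4 were higher in rd1 on average, namely Epb41l4aos (0.81), Snhg20 (0.54), Snhg12 (0.50) and Snhg6 (0.37), and Mir124-2hg was lower (-0.41 ± 0.11, adjusted p = 0.0088). Snhg20 was at 29.5, 29.0, 34.9 and 40.7 CPM in P10 WT and at 43.9 and 60.0 CPM in P10 rd1, without overlap. At P8 none of these 4 passed, with log2 differences of 0.36, 0.24, 0.10 and 0.10. Of the 15 miRNA hosts found by coordinates, 1 was higher and 3 were lower in rd1 on average. The 10 largest differences among the 13 higher members of 1 sign at all ages also included Gm42418 (2.24), Gm15728 (0.77), Slmapos2 (0.72), Gm37276 (0.70), 5430416N02Rik (0.70), Gm29562 (0.68) and Gm26694 (0.53); the call of Gm26694, adjusted p = 0.0454, was lost under 20 alternatives.

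Gm26735 had the largest average difference of all members. The gene, at chr13:28943048-28951671, overlaps Sox4, a transcription factor gene of immature neurons, on the opposite strand. Since the strand setting of the counting is not given in the sources used here, counts of members that overlap a gene on the opposite strand may include reads of that gene. Gm26735 was listed at 0 in both rd1 libraries at P2, P4 and P10 and in P6 rd1 replicates 1 and 3, and at 8.44 CPM in P6 rd1 replicate 2. In P8 rd1 it was at 52.1, 44.2, 36.6 and 44.0 CPM, against 15.5 and 36.7 CPM in P8 WT. WT libraries held 61.7 to 125.3 CPM at P2 and P4, and 41.1, 30.2, 9.08 and 2.59 CPM at P10. Against a floor of 3 counts per library, Gm26735 was at least 538.8-fold lower in rd1 at P2, 689.1-fold at P4 and 131.5-fold at P10, while the P8 difference was 0.72 ± 0.86 (adjusted p = 0.711). Sox4 itself did not differ on average (0.38, adjusted p = 0.224). The 8 rd1 libraries listed at 0 are all of the deeper class, and the 4 rd1 libraries of the other class are those of P8; the part of depth in this difference was not tested.

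Gm42418, AY036118 and Gm26917 share a locus on chromosome 17 near 39.8 Mb, where ribosomal RNA sequence lies, and AY036118 overlaps Gm42418 on the opposite strand. Gm42418 was at 92.7 to 292.3 CPM in the 9 deeper rd1 libraries and at 318.8 CPM in P6 WT replicate 1, and at or under 45.8 CPM in the 18 others. AY036118 went the other way: it was at or under 95.1 CPM in the deeper rd1 libraries, at 332.5, 192.8, 99.2 and 325.3 CPM in P8 rd1, and at 126.6 to 3271 CPM in WT. Gm26870 on chromosome 9 is a member through a single library, P6 WT replicate 1 at 161.6 CPM, and was under 7 CPM in every other library. On average Gm42418 was higher in rd1 (2.24 ± 0.44, adjusted p = 0.000694) and AY036118 lower (-3.16 ± 0.65, adjusted p = 0.00112), and without P6 WT replicate 1 the values were 2.74 and -2.99. At P8 the differences were 0.20 ± 1.00 and -0.38 ± 1.21. Depth class and genotype cannot be told apart in these averages.

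**Figure D5:**
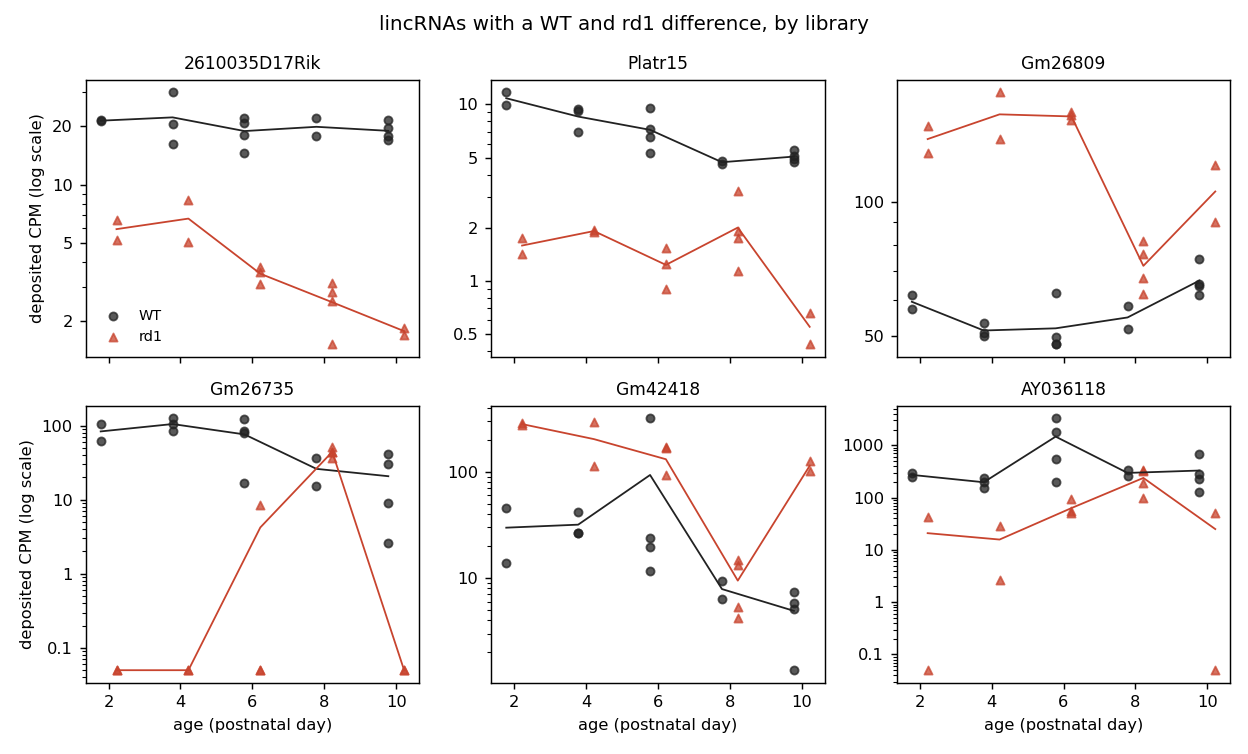
Deposited CPM (log axis; values under 0.05 are drawn at 0.05) against age for 6 lincRNAs; circles are WT libraries, triangles rd1 libraries, and lines join the group means. 2610035D17Rik and Platr15 are apart at every age, whereas Gm26809, Gm26735, Gm42418 and AY036118 come together at P8.

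The difference between the genotypes changed with age in 5 members by the test of the interaction (1.02% of all genes): Gm26809, Gm26735, Gm26880, Gm42428 and Gpr137b-ps. The difference of Gm26880 turned from higher to lower in rd1. This lincRNA was at 30.96 and 24.3 CPM in WT and 50.02 and 41.4 CPM in rd1 at P2, and at 29.2 to 35.1 CPM in WT and 22.8 and 20.8 CPM in rd1 at P10. Its log2 difference went from 0.76 ± 0.15 at P2 (adjusted p = 0.00613) through 0.20 ± 0.13 at P8 to -0.48 ± 0.14 at P10 (adjusted p = 0.0245). At both ends the rd1 libraries are of the deeper class. Gm42428 went from 1.13 ± 0.21 at P2 (adjusted p = 0.00218) to -0.21 ± 0.18 at P10, where it did not pass (adjusted p = 0.48). Gpr137b-ps was lower in rd1 at P4 (-1.91 ± 0.51, adjusted p = 0.0426) and higher at P8 (1.93 ± 0.50, adjusted p = 0.0335), where rd1 held 35.1, 51.5, 44.4 and 49.1 CPM and WT 8.39 and 14.4 CPM.

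Protein genes that handle such RNAs were counted in the same fit. Over all tested genes 16.5% rose and 16.8% fell between P2 and P10 in WT. On the genotype average 12.9% were higher and 10.6% lower in rd1. The lists are short, and their counts are given as a description. Of 14 genes of paraspeckles and speckles, which bind Neat1 and Malat1, 7 fell and 0 rose between P2 and P10 in WT, with a median of -0.38, and 3 were higher and 2 lower in rd1. Of 13 genes of nonsense-mediated decay, which removes many spliced host transcripts of small nucleolar RNAs, 2 rose and 1 fell, and 3 were higher and 0 lower in rd1. Of 12 tested genes of the RNA exosome, 0 rose, 1 fell and 3 were higher in rd1. Of 10 genes of small RNA processing, 0 rose and 2 fell, and 1 was higher and 1 lower in rd1.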

How the data were processed

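RNA of sorted Nrl-GFP-positive rods was sequenced with a stranded kit for polyadenylated RNA as 125-base read pairs, per the labels' protocols. The authors deposited estimated gene counts and CPM, and estimated transcript counts with transcript lengths. kallisto 0.42.4, edgeR 3.32.1 and GRCm38.p5 are named in the submitters' processing notes; kallisto's strand setting is not given in the sources used here. The deposited CPM are counts over the library total. Each table held 1 column of no sample, which was not used. Levels are deposited CPM; tests used the deposited estimated counts, rounded.

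P6 rd1 replicates 1 and 3 differed by less than any other pair of a group (chi-square per degree of freedom 2.71, other 28 pairs 10.4 to 119.5) and were averaged. edgeR 4.0.16 (R 4.3.3) fitted 10 groups with TMM, filterByExpr and the quasi-likelihood test to 18608 of 45594 genes, adjusted by Benjamini-Hochberg at 0.05 over all of them; all 203 members passed the filter. SE is the log2 fold change over the root of F. Named members were the 10 largest changes in each direction without overlap (course) or with 1 sign at all ages (genotype), the smallest interaction p-values, the highest levels and a list of known lincRNAs. The miRNA hosts, Platr17, Gm3764 and the neighbours given beside a member were added by coordinates or likeness. Members and lists were chosen with earlier results of these data known. The floor of 3 counts covers counting error only. Alternatives were other scalings, no filter, DESeq2 1.42.0, the pair kept apart, a replicate block and each sample left out.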

Additional observations from a re-analysis of the deposited data

Results flagged for a closer look

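In the groups of 4 libraries, 55 named members were tested for a library far from the other 3, and 8 of 165 group tests stood out; chance gives about 1 in 20. Of these, 7 were in P6 WT. P6 WT replicate 1 was the highest for Gm42418 (318.8 CPM), Gm26917 (419.3 CPM), Gm26870 (161.6 CPM) and 5430416N02Rik (50.01 CPM). P6 WT replicate 3 was the highest for Miat at 1556 CPM, and P6 WT replicate 2 for Gm26809 (62.3 CPM) and Gm11342 (3.88 CPM). At P10, WT replicate 5 was the highest for Gm44196 at 36.7 CPM.

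The genotype difference changed with age for Gm26809 (edgeR interaction adjusted p = 0.00839), Gm26735 (0.0182), Gm26880 (0.0189), Gm42428 (0.0284) and Gpr137b-ps (0.0366). The P10 difference minus the P2 difference passed for Gm26880 at -1.23 (adjusted p = 0.00636) and Gm42428 at -1.34 (adjusted p = 0.0435).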

How the results depend on the processing

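The named members' direction was the same under every alternative in which they were called. Of 3195 values for single members, 3089 stayed on the same side of the threshold, 92 lost the call and 14 gained it. Of the values called in the reported or the alternative fit, 0 changed sign. Signs were not compared for values called in neither, and the interaction test has no sign. Of 419 counts of members, 355 were within 1.5 times the reported count. The number of members was 406 at a WT mean of 2 CPM or more, 116 at 10 CPM or more, and 196 to 205 without single WT libraries. With DESeq2, 32 members differed at P2, 29 changed with age and 4 had a P10 difference other than at P2. Without the low-count filter the last pair of counts was 20 and 0, with the near-identical P6 rd1 libraries kept apart 10 changed with age, and with no scaling 1 member had a P10 difference other than at P2. No scaling moved the median of all genes by -0.11 (WT) and -0.14 (rd1) between P2 and P10.

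Same-numbered samples did not deviate together (9 pairs, r from -0.238 to 0.138, median 0.0328), so the numbers do not pair them. With the replicate block 63 members passed between P2 and P10 in WT, 70 on the genotype average, 24 at P10 (reported 40), 3 changed with age, 1 had a P10 difference other than at P2 and 18 a P8 difference from the other ages. With it the WT course did not pass for Gm42418 (-1.19, adjusted p = 0.455), Rmst (0.113), Neat1 (0.0675) and 4833445I07Rik (0.0797), the genotype average for Neat1 (0.0598) and Gm26694 (0.0526), and the interaction for Gm26880 (0.0704) and Gpr137b-ps (0.116).

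Leaving out 1 sample at a time gave 56 to 84 members for the WT course, 47 to 83 for the rd1 course and 65 to 91 for the genotype average. It gave 7 to 29 at P2, 7 to 31 at P4, 6 to 27 at P6, 4 to 23 at P8 and 12 to 51 at P10. It gave 1 to 15 for the change with age, 0 to 2 for P10 against P2 and 0 to 47 for P8 against the other ages. The interaction was lost for Gm26809 (adjusted p = 0.0598) and Gm26735 (0.127) without P8 WT replicate 1, and for Gm26880 without P10 rd1 replicate 1 (0.0587) or 2 (0.0944). Those of Gm42428 and Gpr137b-ps were lost without 11 and 14 of the samples. With 2 libraries in several groups, smaller changes can be missed.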

Other observations

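Meg3 and Neat1 were lower in rd1 on average, and neither call was firm. Meg3 differed by -0.87 ± 0.28 (edgeR adjusted p = 0.0258). At P10 its rd1 libraries held 101.5 and 36.9 CPM and its WT libraries 69.2 to 550.1 CPM, and at P8 the values overlapped, with WT at 100.8 and 232.4 CPM and rd1 from 189.5 to 698.5 CPM. The adjusted p was 0.0584 to 0.0761 without P2 rd1 replicate 2, P2 WT replicate 1, P4 rd1 replicate 1, the averaged P6 rd1 pair, P8 WT replicate 2 or P10 rd1 replicate 2. The members most like Meg3 over the 10 group means were RP23-54G8.4 (r = 0.94), Gm9801 (r = 0.90) and Gm26853 (r = 0.90). Neat1 differed by -0.51 ± 0.17 (adjusted p = 0.0286). At P2 its rd1 libraries held 5.55 and 4.18 CPM against 13.3 and 13.9 CPM in WT, and at P8 they held 16.3 to 31.4 CPM against 18.5 CPM in both WT libraries. The adjusted p of Neat1 was 0.0534 to 0.0705 on leaving out P2 rd1 replicate 2, P4 rd1 replicate 2, P4 WT replicate 1, the P6 rd1 pair, P6 rd1 replicate 2, P8 WT replicate 1 or P10 rd1 replicate 2.

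A830039N20Rik, inside Kcnma1, was lower in rd1 at P10. Its P10 rd1 libraries held 7.37 and 4.40 CPM, and its WT libraries 32.0, 30.9, 25.3 and 7.24 CPM, so 1 WT library lay within the rd1 values. The difference was -1.93 ± 0.45 (adjusted p = 0.00767), and at P8 it was 0.48 ± 0.42 (adjusted p = 0.593).

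A430106G13Rik, the host of miR-181b, and Gm37233, the host of miR-5103, were lower in rd1 on average, at -0.92 ± 0.15 and -0.58 ± 0.14 (adjusted p = 9.56e-05 and 0.00406). At P8 neither passed, with differences of 0.25 ± 0.32 and -0.14 ± 0.30 (adjusted p = 0.728 and 0.844).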
